A study of Mus musculus with 24 samples.

Results

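The Wnt ligands are a family of secreted signalling proteins, and 10 of them were followed here: Wnt2b, Wnt4, Wnt5a, Wnt5b, Wnt7b, Wnt9a, Wnt10a, Wnt10b, Wnt11 and Wnt16. They were chosen by name, as the rows with these symbols in the deposited table of protein-coding genes, and all 10 were found among the 21948 genes kept. The table lists 9 further Wnt genes, of which 0 passed the expression filter used for testing, so the 10 account for every Wnt gene above it. The samples were skeletal cells of male mice, described as wild-type, on postnatal day 10. They were taken from the spine (vertebral cells) or from femur and tibia (long bone cells). All groups were sorted by one surface gate: negative for CD31 (endothelium), TER119 (red cells), CD45 (leukocytes), Thy, 6C3 and CD105, and positive for CD200. They were then divided by embigin (EMB), a transmembrane protein of the immunoglobulin family that partners lactate transporters. Vertebral cells were divided again by GFP, which the design text equates with a history of Zic1-cre, a recombinase under the control of the transcription factor gene Zic1. Animals with that history carry the recombinase, so the term wild-type is not literal for them. All long bone cells were GFP-. Vertebral GFP+, vertebral GFP- and long bone cells each gave an EMB+ and an EMB- group, which makes 6 groups of 4 libraries. GFP in vertebral GFP+ cells follows past Zic1-cre activity and not a cell type as such, so GFP- vertebral cells were selected only by the absence of that history.

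Wnt proteins carry a lipid that the acyltransferase Porcn attaches and are escorted to the cell surface by Wls. Outside the cell they bind Frizzled receptors, and with the co-receptors Lrp5 or Lrp6 this stabilises beta-catenin, which acts on target genes with transcription factors of the TCF and LEF family. Wnt5a, Wnt5b and Wnt11 are known mostly for a route that does not need beta-catenin, runs through receptors such as Ror2 and Ptk7, and orients cells within a tissue; in the growth plate, the cartilage that lengthens bones, several Wnt ligands regulate how chondrocytes proliferate and mature. Wnt9a is known from joint formation, Wnt7b and Wnt10b from bone formation, Wnt16 from joints and cortical bone, and Wnt10a from teeth and skin.

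The promoter sequences of 3 ligands are shown here, chosen for their levels: Wnt11 and Wnt5b, the 2 most abundant ligands, and Wnt9a, which ran against the other 5 tested ligands. Each is the stretch from 250 to 11 bases before a transcription start, 240 bases, from RefSeq's table for GRCm38.p6, printed 5′ to 3′ on the gene's strand. Capitals mark the letters CTTTGA or their reverse complement TCAAAG, the core that TCF and LEF factors bind. The Wnt11 window belongs to the first of 2 starts and lies at chr7:98834862-98835101 on the plus strand, before the start at 98835112. The Wnt5b window belongs to the innermost of 3 starts, at chr6:119449397-119449636 on the minus strand, before 119449386. The Wnt9a window lies at chr11:59306680-59306919 on the plus strand, before 59306930.
Wnt11: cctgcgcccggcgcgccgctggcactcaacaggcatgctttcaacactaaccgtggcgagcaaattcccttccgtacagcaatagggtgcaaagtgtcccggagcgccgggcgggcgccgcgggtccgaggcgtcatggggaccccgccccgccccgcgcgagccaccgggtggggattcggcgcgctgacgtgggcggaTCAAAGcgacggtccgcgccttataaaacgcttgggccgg
Wnt5b: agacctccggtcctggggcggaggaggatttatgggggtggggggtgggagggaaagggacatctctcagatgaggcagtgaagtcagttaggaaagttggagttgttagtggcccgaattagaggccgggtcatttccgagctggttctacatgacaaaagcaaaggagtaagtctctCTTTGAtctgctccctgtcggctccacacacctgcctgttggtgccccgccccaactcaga
Wnt9a: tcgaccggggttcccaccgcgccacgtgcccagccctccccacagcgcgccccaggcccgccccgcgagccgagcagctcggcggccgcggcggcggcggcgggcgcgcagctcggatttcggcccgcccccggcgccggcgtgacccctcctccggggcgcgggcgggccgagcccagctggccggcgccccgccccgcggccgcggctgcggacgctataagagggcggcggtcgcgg
In the Wnt11 window the match sits 50 to 45 bases before the start, and in the Wnt5b window it sits 71 to 66 bases before it. The table held 7 of the 10 ligands (Wnt5a, Wnt7b and Wnt10a were not matched), with 10 starts in all, and these were the only 2 of the 10 windows with a match. Over all 32851 promoters of the same length, 13.5% held it on either strand. A RUNX core (TGTGGT or ACCACA, in 13.6% of all promoters) and a SOX core (ACAAAG or CTTTGT, in 16% of them, which shares the letters CTTTG with the TCF and LEF core) were found in 0 of the 10 windows. The windows shown differ in base composition, which for Wnt5b and Wnt11 depends on the start chosen, since those shown are the ones with a match. That of Wnt9a is 84.2% GC with 46 CpG, that of Wnt11 is 69.6% GC with 34 CpG, and that of Wnt5b is 55.8% GC with 7 CpG, against medians of 52.1% and 5 over all promoters. At its outermost start Wnt5b has 74.2% GC and 32 CpG, and at the start between them 53.3% and 4. Wnt11 has a further start at 98838845, with 57.1% GC and 16 CpG. These matches are descriptions of letters in a window, and no binding was measured.

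By the coordinates in the deposited table, whose build is GRCm38, the 10 genes lie on 8 chromosomes: Wnt2b at chr3:104945272-104961921, Wnt4 at chr4:137277489-137299726, Wnt5a at chr14:28504750-28527447, Wnt5b at chr6:119432531-119544347, Wnt7b at chr15:85535439-85581821, Wnt9a at chr11:59306928-59333552, Wnt10a at chr1:74791516-74804179, Wnt10b at chr15:98771753-98778150, Wnt11 at chr7:98835112-98855195 and Wnt16 at chr6:22288227-22298522. GENCODE M21 gives the same bounds for 7 of them and slightly wider ones for Wnt5a (ending at 28527448), Wnt7b (85535437 to 85582473) and Wnt10b (starting at 98770712). Each value is for the whole gene, summed over its exons. Wnt9a lies 16176 bases from Wnt3a, Wnt10a lies 6194 bases from Wnt6 and Wnt10b lies 11707 bases from Wnt1. The libraries do not mark the strand, so reads cannot be told apart where an opposite-strand gene shares exon bases: 358 bases of Wnt5a are shared with the antisense gene Gm2670, 324 of Wnt7b with the antisense gene AU022754 and 364 of Wnt11 with the pseudogene Gm8398.

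Expression was deposited as FPKM, fragments scaled by the length of the gene and the mapped total of its library, so levels of different genes can be set side by side per length while the read depth behind each value is unknown. Between 10158 and 11204 genes per library had an FPKM of 1 or more. Emb averaged 49.996, 49.5 and 34.7 FPKM in the vertebral GFP+, vertebral GFP- and long bone EMB+ groups and 0.398, 1.03 and 0.930 in the matching EMB- groups. Zic1 averaged 1.87 and 0.827 FPKM in vertebral GFP+ EMB+ and EMB- cells, 0.0415 and 0.0212 in GFP- cells, and no long bone library listed it above 0. The titles of the 4 vertebral GFP- EMB+ libraries carry "Emb-GFP+", against their cell type labels, by which they were grouped. Long bone EMB- replicate 4 correlated with the other libraries of its group at 0.925 to 0.944 across genes, while every correlation within the other 5 groups was at least 0.978. Titles call the replicates biological without naming animals, so p-values measure the spread between libraries.

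Among the ligands, 6 passed the filter, which asked for 4 or more libraries at 1 FPKM or above: Wnt11, Wnt5b, Wnt5a, Wnt4, Wnt7b and Wnt9a. Wnt11 and Wnt5b were present at 1 FPKM or more in all 24 libraries, Wnt5a in 23, Wnt9a in 21, Wnt4 in 16 and Wnt7b in 12. Wnt2b, Wnt10a, Wnt10b and Wnt16 were too low to test. Genes were compared on log2(FPKM + 1) with limma and Benjamini-Hochberg adjustment over 11767 genes, and a change is called where the adjusted p is under 0.05. The added 1 compresses the differences of weakly expressed genes, so the ratio of mean FPKM is given too. The first 3 comparisons, EMB+ against EMB- cells within vertebral GFP+, vertebral GFP- and long bone cells, share no libraries and ask which ligands differ with embigin.

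Of the 6 ligands that passed the filter, Wnt11, Wnt5b, Wnt5a and Wnt4 were higher in EMB+ than EMB- cells in all 3 settings, Wnt7b was higher in both vertebral settings, and Wnt9a was lower in all 3. In vertebral GFP+ cells 5 of the 10 ligands rose and 1 fell. Over all genes tested, 42.1% rose and 7.85% fell there. Vertebral GFP- cells had the same counts, 5 of 10 higher and 1 lower, against 41.7% and 10.6% of all genes. Long bone cells had 4 higher and 1 lower, against 17.5% and 16%. Since the filter keeps a ligand that is high in only 1 kind of cell, these counts are descriptions. The shares are of tested genes, while 4 of the 10 ligands did not pass the filter and could not be called, here or below. The median difference over the 6 ligands tested was 1.92, 2.16 and 1.00 on the log2 scale, beside 0.32, 0.30 and 0.08 over all genes. Changes are thus read against a general shift of about those last sizes towards EMB+ vertebral cells.

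**Figure D1:**
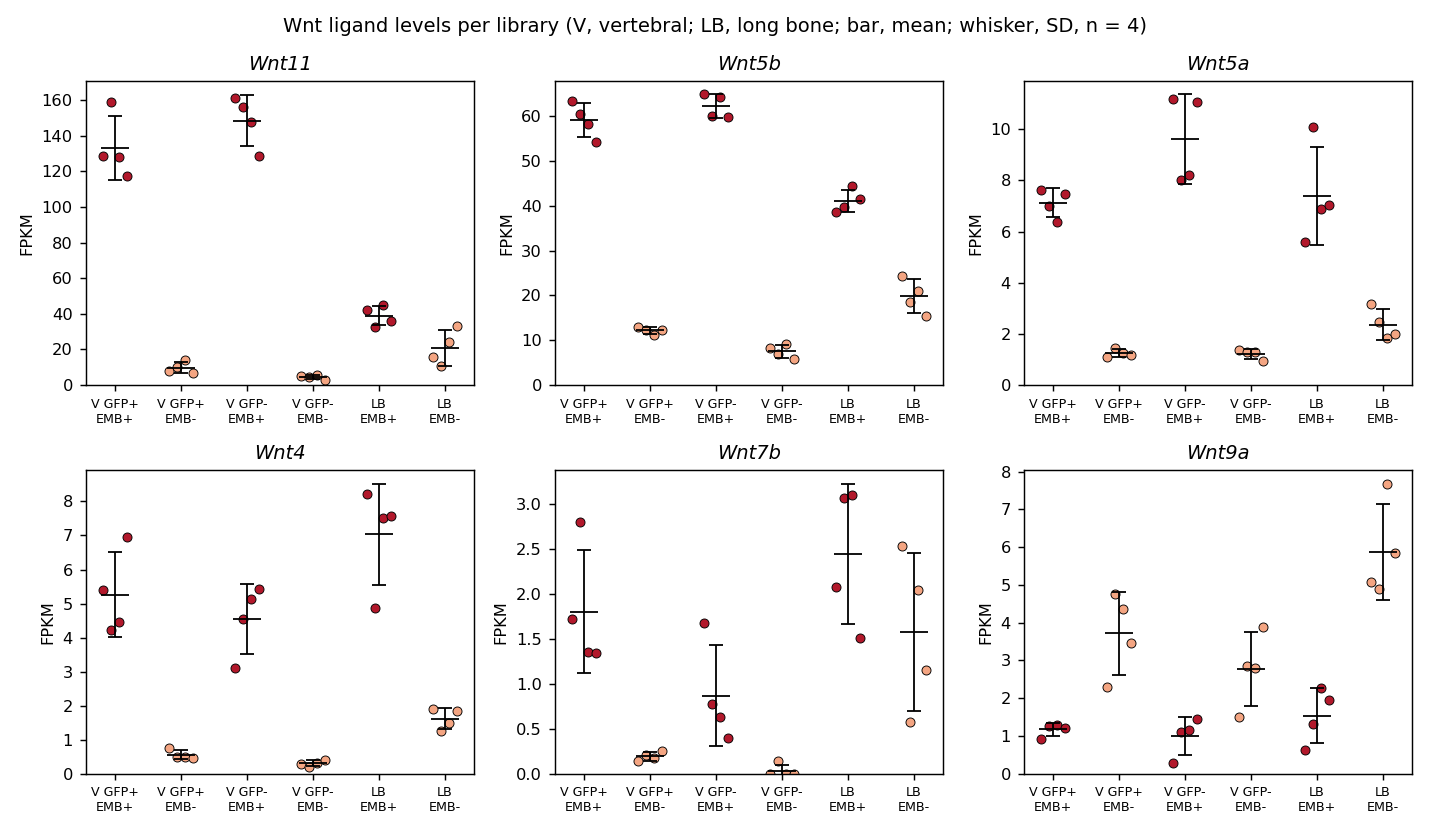
FPKM of the 6 ligands that passed the filter in each of the 24 libraries (points; dark red, EMB+; light, EMB-), with the group mean (bar) and SD (whisker, n = 4); each panel has its own axis from 0. Wnt11, Wnt5b, Wnt5a and Wnt4 stand higher in EMB+ than EMB- libraries of the same source, apart from an overlap for Wnt11 in long bone, while Wnt9a stands lower.

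Wnt11, a ligand known for steering cell movements without beta-catenin, had the highest level in vertebral EMB+ cells and, in both kinds of vertebral cells, the greatest difference among the 6 ligands. In long bone its difference was smaller in size than those of Wnt4, Wnt5a, Wnt5b and Wnt9a. Vertebral GFP+ EMB+ libraries measured 129, 159, 128 and 117 FPKM, against 7.67, 10.2, 14.0 and 6.93 in their EMB- counterparts. Vertebral GFP- EMB+ libraries measured 161.01, 156, 147 and 129 FPKM, against 4.84, 4.67, 5.66 and 2.59. Long bone EMB+ libraries measured 42.0, 32.9, 45.0 and 36.0 FPKM, against 15.6, 10.4, 24.2 and 33.4. Both vertebral comparisons are far apart, while in long bone the EMB- replicate 4, at 33.4, lies above the EMB+ replicate 2, at 32.9. Wnt11 rose by 3.68 on the log2 scale in vertebral GFP+ cells (SE 0.24, adjusted p = 1.1e-11), a 13.7-fold ratio of means. In vertebral GFP- cells it rose by 4.81 (adjusted p = 4.0e-14), a 33.4-fold ratio. In long bone it rose by 0.98 (adjusted p = 0.00288), a 1.87-fold ratio. In order of mean level the groups were vertebral GFP- EMB+ (148 ± 14.3, SD, n = 4) and GFP+ EMB+ (133 ± 17.9), whose ranges overlap, then long bone EMB+ (39.0 ± 5.51) and EMB- (20.9 ± 10.1), which also overlap. Vertebral GFP+ EMB- cells followed at 9.70 ± 3.18, within reach of the lowest long bone EMB- libraries, and vertebral GFP- EMB- cells were last at 4.44 ± 1.31.

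Wnt5b, which with Wnt5a governs the pace of chondrocyte differentiation, was second to Wnt11 in vertebral EMB+ cells and varied little between replicates. It measured 63.4, 60.5, 58.3 and 54.3 FPKM in vertebral GFP+ EMB+ libraries, against 13.0, 12.3, 11.2 and 12.3 in EMB-. The GFP- libraries gave 64.8, 60.1, 64.1 and 59.9 FPKM in EMB+, against 8.23, 6.83, 9.04 and 5.84 in EMB-. Long bone gave 38.7, 39.7, 44.4 and 41.4 FPKM in EMB+, against 24.4, 18.6, 21.1 and 15.4 in EMB-. EMB+ and EMB- libraries did not overlap in any of the 3 settings. The log2 differences were 2.18 (SE 0.12, adjusted p = 3.0e-13), 2.91 (adjusted p = 9.7e-16) and 1.03 (adjusted p = 2.1e-07), or 4.84-fold, 8.32-fold and 2.07-fold as ratios of means. By mean level, vertebral GFP- EMB+ (62.2 ± 2.62) and GFP+ EMB+ (59.1 ± 3.85) overlapped, and below them the groups stood apart: long bone EMB+ (41.0 ± 2.51), long bone EMB- (19.9 ± 3.79), vertebral GFP+ EMB- (12.2 ± 0.731) and vertebral GFP- EMB- (7.48 ± 1.43).

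Wnt5a, the ligand of Ror2 in limb outgrowth, was lower than Wnt5b per length but moved the same way. Vertebral GFP+ libraries held 7.65, 6.99, 6.39 and 7.47 FPKM in EMB+, against 1.11, 1.47, 1.26 and 1.16 in EMB-. In the GFP- libraries the values were 11.2, 8.003, 8.21 and 11.1 FPKM, against 1.37, 1.31, 1.29 and 0.936. Long bone libraries held 5.59, 10.1, 6.88 and 7.04 FPKM, against 3.17, 2.47, 1.82 and 1.98. Every EMB+ library was above every EMB- library of its source. The log2 differences were 1.85 (SE 0.15, adjusted p = 6.9e-10), 2.24 (adjusted p = 1.3e-11) and 1.31 (adjusted p = 2.3e-07), with ratios of means of 5.70, 7.84 and 3.13. The 3 EMB+ groups averaged 9.62 ± 1.75 (vertebral GFP-), 7.40 ± 1.91 (long bone) and 7.12 ± 0.564 FPKM (vertebral GFP+); the long bone range overlaps both of the others. Long bone EMB- cells (2.36 ± 0.607) stood above vertebral GFP+ EMB- (1.25 ± 0.158) and GFP- EMB- cells (1.23 ± 0.197), which overlapped.

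Wnt4, known in cartilage as well as in kidney and ovary development, was highest in long bone EMB+ cells. It measured 5.41, 4.22, 4.44 and 6.97 FPKM in vertebral GFP+ EMB+ libraries, against 0.748, 0.502, 0.494 and 0.463 in EMB-. The GFP- EMB+ libraries gave 3.10, 4.54, 5.13 and 5.42 FPKM, against 0.296, 0.195, 0.316 and 0.408. Long bone gave 8.21, 4.86, 7.50 and 7.56 FPKM in EMB+, against 1.89, 1.25, 1.48 and 1.84 in EMB-. EMB+ and EMB- libraries of a source did not overlap. Wnt4 rose by 2.00 (SE 0.16, adjusted p = 5.4e-10), 2.07 (adjusted p = 1.9e-10) and 1.60 (adjusted p = 2.2e-08) on the log2 scale, with ratios of means of 9.53, 15.0 and 4.35. The EMB+ means were 7.03 ± 1.48 in long bone, 5.26 ± 1.25 in vertebral GFP+ and 4.55 ± 1.03 in vertebral GFP- cells, with overlapping ranges between neighbours. Long bone EMB- cells (1.62 ± 0.305) lay above vertebral GFP+ EMB- (0.552 ± 0.132) and GFP- EMB- cells (0.304 ± 0.0875), and none of these 3 ranges overlapped.

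Wnt7b, a ligand that promotes bone formation, was low and uneven. It measured 1.72, 2.80, 1.35 and 1.35 FPKM in vertebral GFP+ EMB+ libraries, against 0.137, 0.208, 0.175 and 0.248 in EMB-. The GFP- EMB+ libraries gave 1.68, 0.777, 0.630 and 0.395 FPKM, against 0.137 in replicate 2 and a listing at 0 in the other 3 EMB- libraries. Long bone gave 2.08, 3.07, 3.11 and 1.52 FPKM in EMB+, against 2.54, 0.575, 2.05 and 1.16 in EMB-. Wnt7b separated EMB+ from EMB- libraries in both kinds of vertebral cells, but the long bone groups overlap. The rise was 1.21 on the log2 scale in vertebral GFP+ cells (SE 0.22, adjusted p = 1.0e-04), a 9.40-fold ratio of means, and 0.81 (adjusted p = 0.00376) in vertebral GFP- cells. In long bone the difference was 0.46 (adjusted p = 0.119) and did not pass. Without long bone EMB- replicate 1, the highest of its group at 2.54 FPKM, that difference was 0.63 and passed (adjusted p = 0.0358). In order of mean, EMB+ cells of long bone (2.44 ± 0.780), GFP+ EMB+ vertebral cells (1.81 ± 0.686), EMB- cells of long bone (1.58 ± 0.880) and GFP- EMB+ vertebral cells (0.871 ± 0.562) each overlapped the next, and vertebral GFP+ EMB- cells (0.192 ± 0.0472) stood below them, above the GFP- EMB- cells.

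Wnt9a, which marks forming joints, was the 1 ligand of the 6 tested that fell in EMB+ cells. Vertebral GFP+ EMB+ libraries measured 0.924, 1.27, 1.29 and 1.22 FPKM, against 2.29, 4.76, 4.37 and 3.46 in EMB-. Vertebral GFP- EMB+ libraries had 0.297, 1.11, 1.15 and 1.46 FPKM, against 1.51, 2.85, 2.81 and 3.90. Long bone EMB+ libraries had 0.631, 1.33, 2.26 and 1.95 FPKM, against 5.08, 4.89, 7.68 and 5.85. No EMB+ library reached the lowest EMB- library of its source, although the closest pair in vertebral GFP- cells, 1.46 and 1.51, was nearly level. Wnt9a fell by 1.09 (SE 0.23, adjusted p = 4.5e-04), 0.91 (adjusted p = 0.00198) and 1.47 (adjusted p = 1.7e-05) on the log2 scale. EMB- means were thus 3.16-fold, 2.76-fold and 3.81-fold the EMB+ means. By mean level long bone EMB- cells came first (5.88 ± 1.27), apart from vertebral GFP+ EMB- (3.72 ± 1.10) and GFP- EMB- cells (2.77 ± 0.978), which overlapped. Long bone EMB+ (1.54 ± 0.720), whose range reaches into that of vertebral GFP- EMB- cells, and vertebral GFP+ EMB+ (1.18 ± 0.172) and GFP- EMB+ cells (1.00 ± 0.496) overlapped one another.

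**Figure D2:**
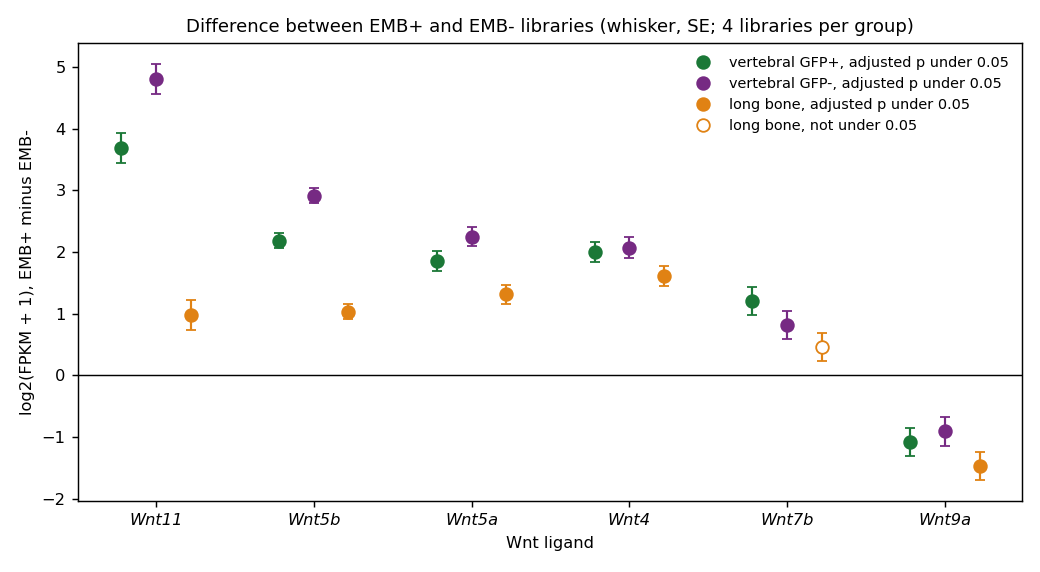
Difference in log2(FPKM + 1) between EMB+ and EMB- libraries for the 6 tested ligands, with its SE (whisker); filled points passed an adjusted p of 0.05 and the open point did not. The vertebral differences of Wnt11 (3.68 and 4.81) and Wnt5b (2.18 and 2.91) stand above those of long bone (0.98 and 1.03), and Wnt9a lies below 0 in all 3.

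The other 4 ligands were near the lower end of the table. Wnt2b reached at most 0.297 FPKM, in a long bone EMB+ library, and was listed at 0 in 5 libraries. Wnt10a reached 1.37 FPKM in long bone EMB- replicate 4, its only library at 1 or more, and was listed at 0 in 13. Wnt10b reached 0.332 FPKM in long bone EMB- replicate 3 and was listed at 0 in 9. Wnt16 measured 0.236, 0.731, 0.774 and 0.827 FPKM in long bone EMB- libraries, was listed at 0 in 12 libraries, and reached 0.591 in a single vertebral GFP- EMB+ library. Long bone EMB- cells thus held the highest library of Wnt10a, Wnt10b and Wnt16. Wnt16 in EMB- cells of long bone did not overlap its levels in vertebral GFP- EMB- cells. It did overlap those in vertebral GFP+ EMB- cells, where replicate 3 (0.2369 FPKM) lay just above long bone EMB- replicate 1 (0.2355). When no filter was applied, limma called Wnt2b higher (0.19, adjusted p = 0.00496) and Wnt16 lower (-0.56, adjusted p = 0.00585) in long bone EMB+ than EMB- cells. Every ligand value was deposited with the mark OK, but at such low levels the read depth behind a listing at 0 is unknown. The same limit holds for the other calls without a filter. Wnt10a, Wnt10b and Wnt16 were lower in both vertebral EMB- groups than in long bone EMB- cells. Wnt2b was lower in vertebral GFP- than long bone EMB+ cells, and the EMB difference of Wnt16 differed between those sources.

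The make-up of the ligand pool changed along with its size. The summed FPKM of the 10 ligands averaged 208 ± 19.7 and 227 ± 14.3 in vertebral GFP+ and GFP- EMB+ cells (SD, n = 4). It averaged 27.8 ± 3.59 and 16.4 ± 2.26 in the matching EMB- cells, and 98.9 against 53.5 in long bone EMB+ and EMB- cells. Wnt11 and Wnt5b together made up 92.5% and 92.7% of the pool in the vertebral EMB+ groups, 79.1% and 72.3% in the vertebral EMB- groups, and 80.9% and 75.9% in long bone EMB+ and EMB- cells. Wnt11 alone held 63.9% and 65.2% of the vertebral EMB+ pools but 34.3% and 26.7% of the EMB- pools. Wnt9a held 0.571% and 0.452% of the vertebral EMB+ pools against 13.3% and 17.4% of the EMB- pools, and 1.54% against 11.1% in long bone. Set directly against each other, Wnt11 was 2.25 ± 0.260 times Wnt5b in vertebral GFP+ EMB+ libraries and 2.38 ± 0.200 times in GFP- EMB+, the lowest library being at 2.03. In vertebral EMB- and long bone EMB+ libraries the ratio ran from 0.444 to 1.25, and in long bone EMB- libraries from 0.561 to 2.16. These shares follow from the levels above and were not tested separately.

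**Figure D3:**
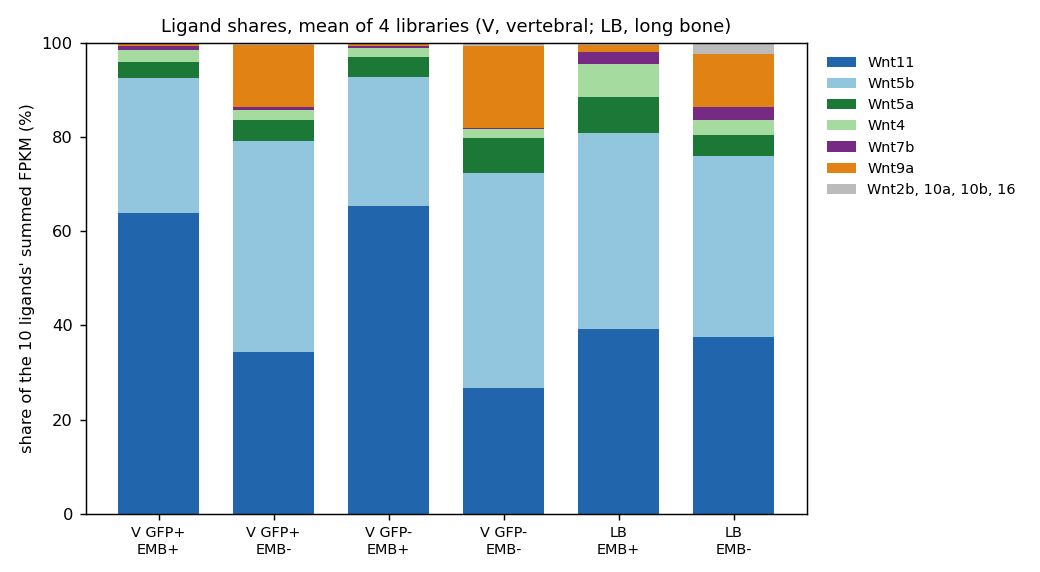
Share of the summed FPKM of the 10 ligands taken by each ligand, as the mean of 4 libraries per group (stacked bars, percent). The Wnt11 share is highest in the 2 vertebral EMB+ groups (63.9% and 65.2%), and the Wnt9a share is highest in the 3 EMB- groups (13.3%, 17.4% and 11.1%).

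Whether the size of an EMB difference itself depended on the source of the cells was tested for the 6 ligands. The 3 tests of this kind share libraries with one another. Against long bone, 2 of the 6 tested ligands differed in vertebral GFP+ cells and 3 in vertebral GFP- cells, where 30.5% and 29.8% of all genes tested did. For Wnt11 the vertebral difference exceeded that of long bone by 2.70 in GFP+ cells (SE 0.35, adjusted p = 1.0e-06) and by 3.83 in GFP- cells (adjusted p = 1.1e-08). Wnt5b differed by 1.16 (SE 0.17, adjusted p = 8.2e-06) and 1.89 (adjusted p = 1.1e-08). For Wnt5a the excess in GFP- cells was 0.93 (SE 0.22, adjusted p = 0.0023), while in GFP+ cells it was 0.54 and did not pass (adjusted p = 0.0631). The differences of Wnt4, Wnt7b and Wnt9a did not pass in either test, with adjusted p between 0.0747 and 0.421. A pseudocount of 0.1 in place of 1, which gives low genes more weight, or library weights raised these counts to 4 or 5, adding Wnt4, Wnt5a or Wnt7b. Between the 2 kinds of vertebral cells, 1 of the 6 tested ligands differed, against 4.87% of all genes. The Wnt5b difference was smaller in GFP+ cells (-0.73, SE 0.17, adjusted p = 0.00881). The Wnt11 difference was also smaller there, by -1.13 (SE 0.35), and missed the threshold (adjusted p = 0.0612). With the replicate number as a block, which pairs same-numbered vertebral libraries, its SE was 0.18 and it passed (adjusted p = 4.5e-04).

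Within vertebral cells, GFP+ and GFP- libraries were compared to see what the Zic1-cre history adds at a fixed EMB state; these and the comparisons of the bones below reuse the libraries already described. In EMB+ cells 0 of the 10 ligands were called in either direction, where 0.391% of all genes were higher in GFP+ cells and 1.71% lower. At an unadjusted p under 0.05 2 of the 6 passed, Wnt5a and Wnt7b, and with the replicate block 0 of 6 were called. Wnt5a was not called although its libraries were separate. Its GFP+ EMB+ libraries (6.39 to 7.65 FPKM) all lay below the GFP- EMB+ libraries (8.003 to 11.2). The difference was -0.37 (SE 0.15, adjusted p = 0.400). In EMB- cells 2 of 10 ligands were higher in GFP+ cells and 0 lower, against 2.25% and 6.22% of all genes. Wnt5b was higher by 0.65 (SE 0.12, adjusted p = 4.1e-04; 1.63-fold) and Wnt11 by 0.97 (SE 0.24, adjusted p = 0.0101; 2.18-fold), and for both the GFP+ and GFP- ranges were separate. The Wnt11 call rests on single libraries: without GFP+ EMB- replicate 3 its adjusted p was 0.0641, and without GFP- EMB- replicate 4 it was 0.062. With a pseudocount of 5 it was 0.0572.

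Between bones, the same ligands were set against each other at equal EMB state. Among EMB+ cells, vertebral GFP- cells had 2 of 10 ligands higher and 2 lower than long bone cells, against 8.49% and 10.6% of all genes. Wnt11 was 3.81-fold higher (1.91, SE 0.24, adjusted p = 1.8e-06) and Wnt5b 1.52-fold higher (0.59, SE 0.12, adjusted p = 6.9e-04), both without overlap. Wnt7b was lower (-0.90, SE 0.22, adjusted p = 0.00442) and so was Wnt4 (-0.53, SE 0.16, adjusted p = 0.0215), both with overlapping libraries. The Wnt4 call was lost with a pseudocount of 0.1 (adjusted p = 0.069) and without vertebral GFP- EMB+ replicate 1 (0.115) or long bone EMB+ replicate 1, 3 or 4 (0.0586 to 0.0794). Vertebral GFP+ EMB+ cells, which differ from long bone in GFP state as well as site, had 2 of 10 higher and 0 lower, against 8.66% and 12.9% of all genes. There Wnt11 was 3.42-fold (1.75, adjusted p = 4.8e-06) and Wnt5b 1.44-fold higher (0.52, adjusted p = 0.00224).

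Among EMB- cells the 6 tested ligands were lower in vertebral than in long bone cells, Wnt4 and Wnt7b in the same direction as between GFP- and long bone EMB+ cells and Wnt11 and Wnt5b in the opposite one. In vertebral GFP- EMB- cells 0 of 10 ligands were higher than in long bone EMB- cells and 6, every ligand tested, were lower. Of all genes tested, 8.05% were higher and 40.2% lower. In vertebral GFP+ EMB- cells the counts were again 0 and 6, against 7.4% and 40.4%. So many genes were lower in vertebral EMB- cells that the median over all genes was -0.28 and -0.27; the ligands' medians were -1.13 and -0.70. Wnt11 was 4.70-fold higher in long bone than in vertebral GFP- EMB- cells (difference -1.92, adjusted p = 7.1e-07) and 2.15-fold higher than in GFP+ EMB- cells (-0.96, adjusted p = 0.00222, with overlap). Wnt5b was 2.65-fold and 1.63-fold higher in long bone, Wnt4 5.33-fold and 2.93-fold, and Wnt5a 1.92-fold and 1.89-fold. Wnt9a was 2.12-fold (-0.89, adjusted p = 0.00252) and 1.58-fold higher (-0.56, adjusted p = 0.0486). The second of these calls was lost in 21 of 33 alternatives, among them no filter (adjusted p = 0.0730), library weights (0.0951), and quantile (0.531) and median-ratio scaling (0.317). Wnt7b differed by -1.25 (adjusted p = 5.8e-05) and -1.05 (adjusted p = 3.8e-04). Wnt11 was thus higher in vertebral than in long bone cells when EMB+ and lower when EMB-. The count of 6 in GFP+ EMB- cells fell to 2 with quantile normalization, which gives every library the same distribution and leaves Wnt4 and Wnt7b. With it Wnt5a lost its call in both comparisons (adjusted p = 0.0609 and 0.227). Median-ratio scaling lowered the count in GFP+ EMB- cells too, since Wnt5a (adjusted p = 0.0576) lost its call there beside Wnt9a.

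Markers of other cell types moved with these comparisons, and their part in the ligand results was not tested. The marker counts are from FPKM as deposited and were not computed under the other scalings. Beside the EMB counts, 42.1%, 41.7% and 17.5% of all genes were higher in EMB+ vertebral GFP+, vertebral GFP- and long bone cells. In the same order, 7.85%, 10.6% and 16% were lower. In bulk libraries, fewer cells of a type and less RNA per cell cannot be told apart. Chondrocyte markers were higher in EMB+ cells for 5, 5 and 4 of 6 genes in vertebral GFP+, vertebral GFP- and long bone cells, among them Acan, Sox9, Matn3 and Comp in all 3, while Col2a1 was lower in both vertebral settings. Their sum, most of it Col2a1, ran from 47986 to 50573 FPKM in vertebral EMB+ and from 53002 to 58873 in vertebral EMB- libraries. In long bone it ran from 26276 to 38423 in EMB+ and from 27958 to 37280 in EMB- libraries. Osteoblast markers were higher in EMB+ cells for 3, 4 and 3 of 6 genes and lower for 1, 0 and 0. The transcription factor genes Runx2, Sp7 and Dlx5 were higher in all 3 settings, as were Wnt11, Wnt5b, Wnt5a and Wnt4. The rest of the list did not follow them. Col1a1 was lower in vertebral GFP+ EMB+ cells (2403 against 5810 FPKM in EMB-) and was not called in the other settings. Bglap was higher in vertebral GFP- cells only, and Ibsp was not called in any setting. The osteoblast sum, most of it Col1a1, was lower in vertebral GFP+ EMB+ libraries (2971 to 3959 FPKM) than in EMB- ones (6687 to 7165). It overlapped in vertebral GFP- cells (3818 to 4859 in EMB+, 3722 to 4500 in EMB-). In long bone it overlapped too (11078 to 24833 in EMB+, 9647 to 17357 in EMB-). Between bones, osteoblast markers were lower for 6 and 5 of 6 genes in vertebral GFP- and GFP+ EMB- cells than in long bone EMB- cells. The 6 tested ligands were lower in these comparisons too, as were 40.2% and 40.4% of all genes. Among EMB+ cells, Col1a1, Ibsp and Bglap were again lower in both vertebral groups than in long bone, while Dlx5 was higher and Runx2 and Sp7 were not called. Wnt11 and Wnt5b were higher there, and Wnt4 and Wnt7b were lower in the GFP- comparison. Markers of prehypertrophic and hypertrophic chondrocytes, the maturing cells of the growth plate, were higher in EMB+ cells for 6 of 6 genes in all 3 comparisons, and their summed FPKM ran from 1555 to 2081 in vertebral EMB+ libraries and from 282 to 403 in vertebral EMB- libraries. In long bone it ran from 1173 to 1658 in EMB+ and from 419 to 550 in EMB- libraries. Markers of tendon and ligament were lower in EMB+ cells for 5, 5 and 3 of 5 genes, as were those of fibroblasts and periosteum, also 5, 5 and 3 of 5. The tendon sum was 34.5 to 58.7 FPKM in vertebral EMB+ and 120 to 295 in vertebral EMB- libraries, and 95.3 to 131 against 272 to 456 in long bone. Wnt9a moved in the same direction as these lists. Erythroid markers summed to 6169 to 10448 FPKM in vertebral GFP- EMB- and 17395 to 36256 in long bone EMB- libraries, against 103 to 805 in the other 4 groups. Muscle markers summed to 351 to 828 FPKM in long bone EMB- libraries and at most 104 elsewhere. Most of that sum was Tnni2, at 509 FPKM on average in long bone EMB- cells. Tnnt3 of the same list averaged 2.80 there, against 34.9 and 27.9 in vertebral GFP+ and GFP- EMB+ cells, and Myh3 was near 0 in every group. Myog averaged 19.7 FPKM in long bone EMB- cells, 2.79 in vertebral GFP+ EMB- cells and at most 0.0394 in every other group. Leukocyte markers varied from 274 to 1873 FPKM among vertebral GFP- EMB+ libraries, against 18.3 to 421 elsewhere. Endothelial markers were near 0, with a sum of at most 6.17 FPKM.

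The other genes of the pathway were taken from 7 lists by role, and their EMB differences are given in the order vertebral GFP+, vertebral GFP- and long bone. Each count of a list is read against the shares of all genes that were higher (42.1%, 41.7% and 17.5%) or lower (7.85%, 10.6% and 16%) in EMB+ cells. These counts depend on how libraries are scaled. Of all genes called in the 3 comparisons, 84.3%, 79.7% and 52.3% were higher in EMB+ cells with FPKM as deposited. Quantile normalization gave 52%, 53.8% and 59.8%, and scaling by the median ratio to a common reference gave 46.9%, 43.7% and 39.9%. The 6 ligands kept their direction under both scalings, and the 5 or 6 calls of each comparison held. Among pathway genes, a direction described below held under both scalings unless stated.

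Of the 2 genes for making and exporting Wnt proteins, the carrier Wls was at 58.7 against 43.4 FPKM, 56.3 against 36.7 and 77.5 against 46.8 in EMB+ and EMB- cells. The differences of 0.43, 0.60 and 0.72 (SE 0.11) all passed, but both vertebral calls were lost under either scaling. The acyltransferase Porcn rose in long bone (0.91, SE 0.14, adjusted p = 1.3e-05), while its differences of 0.03 and 0.24 in vertebral cells did not pass (adjusted p = 0.884 and 0.146). Its long bone difference exceeded that of GFP+ cells by 0.88 (the test of the difference gave -0.88, adjusted p = 0.0012).

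Of 15 receptors and co-receptors tested, 7, 7 and 4 were higher in EMB+ cells and 3, 2 and 2 lower, against 42.1%, 41.7% and 17.5% of all genes higher and 7.85%, 10.6% and 16% lower, with medians of 0.36, 0.38 and 0.26. With quantile normalization these counts were 2, 2 and 6 higher and 4, 2 and 2 lower, and with median-ratio scaling 2, 2 and 3 higher and 4, 2 and 2 lower. Ptk7, a co-receptor of the planar polarity route, rose in all 3 settings, by 2.30, 2.36 and 1.28 (SE 0.13), from 6.54 to 36.1 FPKM, from 5.78 to 33.9 and from 10.3 to 26.1. Ror2, the Wnt5a receptor, was at 14.4 against 9.24, 14.3 against 10.5 and 12.2 against 11.3 FPKM. The Frizzled gene Fzd8 went the other way in vertebral cells, falling by 1.84 and 2.05 (SE 0.14), from 41.6 to 10.8 and from 53.5 to 12.1 FPKM, while in long bone it rose by 0.42 (adjusted p = 0.0219). That long bone call was lost with median-ratio scaling (adjusted p = 0.0618). The contrast between bones in Fzd8 passed its own test, with differences of -2.26 (adjusted p = 2.0e-09) and -2.47 (adjusted p = 1.3e-09). Fzd4 fell in vertebral GFP+ and long bone cells, by 1.03 and 0.94. Fzd9, the most abundant Frizzled RNA per length, was at 105 against 71.8, 99.6 against 66.8 and 85.1 against 93.6 FPKM.

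R-spondins are secreted proteins that amplify Wnt signalling by binding Lgr receptors and keeping Frizzled at the surface. Of 5 such genes tested, 3, 3 and 1 were higher in EMB+ cells and 2, 2 and 1 lower, with medians of 0.93, 0.93 and 0.07. Rspo3 rose in vertebral cells by 1.93 and 1.72 (SE 0.16), from 2.91 to 13.9 FPKM and from 2.81 to 11.6. In long bone it was at 4.97 against 3.88 FPKM (0.32, adjusted p = 0.13), and without long bone EMB- replicate 4 this passed (0.54, adjusted p = 0.00212). The vertebral differences exceeded that of long bone by 1.61 (adjusted p = 5.3e-06) and 1.40 (adjusted p = 6.8e-05). Rspo4 rose by 1.47 and 1.17 in vertebral cells, at no more than 2.88 FPKM. Rspo2 fell in all 3, by 1.44, 1.15 and 1.06 (SE 0.20), from 2.35 to 0.218 FPKM, from 1.57 to 0.167 and from 3.02 to 0.911. Of the receptors, Lgr4 rose by 0.93, 0.93 and 0.68 (SE 0.21), although both vertebral calls were lost with median-ratio scaling (adjusted p = 0.0723 and 0.0706), while Lgr6 fell by 1.26 and 1.47 (SE 0.15) in vertebral cells, from 44.5 to 18.2 and from 50.1 to 17.8 FPKM.

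Secreted antagonists bind Wnt proteins or their co-receptors. Of 11 tested, 1, 4 and 1 were higher and 4, 4 and 6 lower in EMB+ cells, where 7.85%, 10.6% and 16% of all genes were lower, with medians of -0.07, -0.04 and -0.50. Wif1, which binds Wnt proteins directly, was the most abundant of them. It fell from 1310.2 to 453 FPKM and from 982 to 432 in vertebral cells (by 1.53 and 1.18, SE 0.14), and was level in long bone at 540 against 522 (0.06, adjusted p = 0.773). The vertebral and long bone differences of Wif1 differed by -1.59 (adjusted p = 5.8e-07) and -1.24 (adjusted p = 4.1e-05). Dkk1, an Lrp5 and Lrp6 blocker, fell by 1.197, 0.92 and 1.23, and Dkk3 by 1.70, 0.51 and 0.91. Sfrp5, a soluble decoy of the Frizzled type, fell from 178 to 64.1 FPKM in vertebral GFP- cells and from 496 to 188.04 in long bone (by 1.47 and 1.37, SE 0.14). In vertebral GFP+ cells it was at 89.2 against 109 FPKM (-0.30, adjusted p = 0.0834), a difference that passed with quantile normalization (-0.66) and median-ratio scaling (-0.69). Its relative Sfrp1 rose by 1.13 and 1.24 in the same 2 settings. Notum, which removes the lipid from Wnt proteins, rose by 1.10 in vertebral GFP+ cells, from 81.7 to 176.2 FPKM. Its rise of 0.40 in GFP- cells was lost under both scalings. The difference was then near 0, at -0.069 (quantile, adjusted p = 0.764) and -0.011 (median-ratio, adjusted p = 0.964).

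Of 11 components of the beta-catenin route, 8, 4 and 4 were higher and 0, 0 and 1 lower, with medians of 0.43, 0.30 and 0.34. Of all genes 42.1%, 41.7% and 17.5% were higher, so the 4 of 11 in vertebral GFP- cells is below that share. Under quantile normalization 1, 2 and 6 were higher and 1 was lower in each setting, and under median-ratio scaling 1 was higher and 1 lower in each. Ctnnb1, which encodes beta-catenin, rose under all 3, from 88.5 to 226 FPKM, from 71.2 to 208 and from 117 to 229 (1.34, 1.54 and 0.99, SE 0.13). Of 9 known target genes 5, 7 and 5 were higher and 0 lower, with medians of 0.36, 0.69 and 0.62; under the scalings 4 to 6 were higher and 0 to 2 lower. The cell cycle gene Ccnd1 rose by 2.39, 3.27 and 1.29 (SE 0.27), from 3.04 to 19.4 FPKM, from 1.39 to 22.5 and from 4.71 to 12.2. Tcf7, a partner of beta-catenin, rose by 1.23, 2.42 and 1.76 (SE 0.20). Lef1 rose from 3.91 to 13.7 and from 2.87 to 20.9 FPKM in vertebral cells (1.61 and 2.496, SE 0.17), whereas in long bone both groups were high, at 20.0 and 18.5 (0.12, adjusted p = 0.62). That contrast of Lef1 passed in its own test against long bone (1.48, adjusted p = 3.3e-05, and 2.37, adjusted p = 8.2e-08). Nkd1, an inhibitor that the pathway induces, rose by 1.43 and 1.57 in vertebral cells and was at 10.95 against 8.65 FPKM in long bone (0.30, adjusted p = 0.0838). Axin2, the target most often used as a readout, stayed below 1 FPKM on average in every group, and rose in vertebral GFP- cells (0.59, adjusted p = 0.0041).

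Of 6 planar cell polarity genes, 3, 2 and 2 were higher and 1, 2 and 2 lower, with medians of 0.34, 0.02 and -0.03. Of all genes 42.1%, 41.7% and 17.5% were higher and 7.85%, 10.6% and 16% lower, and with 6 genes nothing particular to the list is read from its counts. Prickle1, a cytoplasmic component of that route, rose from 11.1 to 23.95 FPKM, from 9.59 to 19.6 and from 11.8 to 22.4 (1.05, 0.95 and 0.96, SE 0.20). Celsr2, an adhesion receptor of it, fell by 1.03 and 1.55 in vertebral cells, and the membrane protein gene Vangl1 fell by 1.43 in long bone, from 23.7 to 7.64 FPKM.

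**Figure D4:**
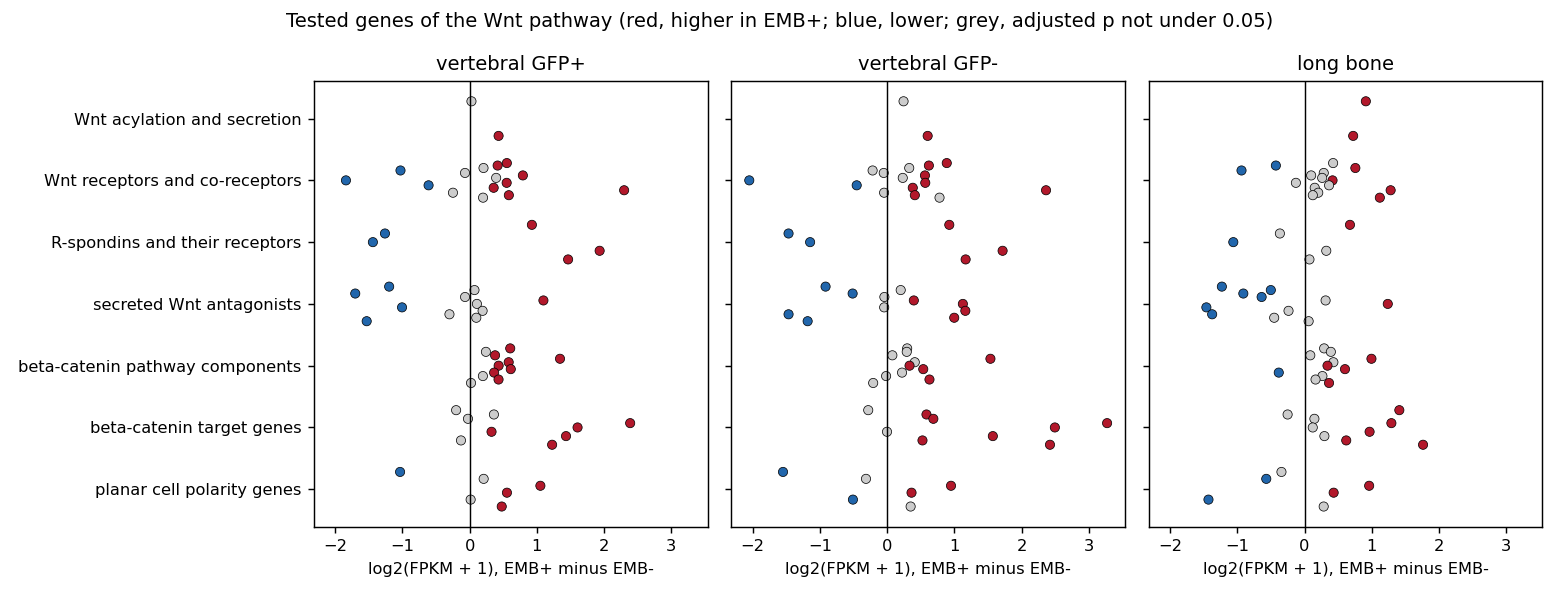
Difference in log2(FPKM + 1) between EMB+ and EMB- libraries for each tested gene of the 7 pathway lists (points, spread vertically within a list), in vertebral GFP+, vertebral GFP- and long bone cells. Red points rose and blue points fell past an adjusted p of 0.05; the most positive points are Ccnd1 in vertebral cells (2.39 and 3.27) and Tcf7 in long bone (1.76).

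Across the 24 libraries the ligands tracked one another to different degrees. These correlations describe 6 groups of 4 libraries and the shift between EMB states that they share, and carry no test. On log2(FPKM + 1), Pearson's r was 0.959 between Wnt5b and Wnt11, 0.954 between Wnt5a and Wnt5b, 0.917 between Wnt4 and Wnt5b, and 0.696 between Wnt7b and Wnt5b. Wnt9a ran against all 5, with r from -0.734 with Wnt5a to -0.255 with Wnt7b. The 3 genes most like each ligand were sought among 8066 genes. For Wnt11 they were Dync1i1 (r = 0.987), a dynein subunit gene, Col9a3 (0.981), a cartilage collagen gene, and Arsi (0.979), an arylsulfatase gene. For Wnt5b they were Sptlc2 (0.983), which starts sphingolipid synthesis, Arsi (0.980) and Ptk7 (0.977). Arsi, named for both ligands, averaged 159 and 124 FPKM in vertebral EMB+, 4.96 and 1.65 in vertebral EMB-, and 37.7 and 9.002 in long bone EMB+ and EMB- cells. For Wnt5a they were Atp1b3 (0.978), a sodium pump subunit gene, Slc25a13 (0.973), a mitochondrial carrier gene, and Loxl4 (0.965), a lysyl oxidase gene. For Wnt4 they were Nt5dc2 (0.961), H2-DMa (0.960), which loads peptides on class II molecules, and Rgs3 (0.958). For Wnt7b they included Rap1gap (r = 0.889) and Sept2 (0.878). For Wnt9a they were the growth factor gene Fgf18 (0.922), Sod3 (0.913), an extracellular superoxide dismutase gene, and the matrix gene Dpt (0.903), each higher on average in the 3 EMB- groups than in their EMB+ counterparts. Fgf18 averaged 11.1, 8.14 and 19.5 FPKM in those EMB- groups and 5.71, 3.98 and 5.40 in the EMB+ groups.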

How the data were processed

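RNA of 24 sorted samples was extracted with RNeasy columns and amplified with the SMART-Seq v4 kit, then tagmented with Nextera XT, which leaves the strand unmarked, per the labels' protocols. The submitters' processing notes name the build GRCm38 and the tools bcl2fastq 2.19, STAR 2.5.2 and Cufflinks 2.1.1. The authors deposited FPKM per gene and library in 1 protein-coding table, per the file headers; an abundant gene can lower all others on this scale, and depth is unknown, so no counting interval is given.

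Of 22053 entries, those repeating an identifier (46) or a symbol (56) and 3 genes with a failed estimate were left out, which kept 21948 genes. The 11767 genes with 4 or more libraries at FPKM 1 or above were tested on log2(FPKM + 1), using R 4.3.3 and limma 3.58.1. All 6 groups entered 1 fit, which had 18 residual degrees of freedom and moderated the spread with a trend and robust estimation. Benjamini-Hochberg adjustment at 0.05 was applied within each of 9 comparisons and 3 differences of EMB effects. The fit was tested on simulated data.

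Groups came from the labels, and for the vertebral GFP- EMB+ libraries from the cell type label. Titles give every long bone EMB+ library the number 1, so their numbers are names only. Same-numbered vertebral libraries were taken as paired where all 4 correlations of their deviations from the group means were over 0.1: between GFP+ and GFP- in EMB+ cells (0.169 to 0.337) and in EMB- cells (0.130 to 0.292), between EMB+ and EMB- in GFP- cells (0.135 to 0.236), and in both crossed pairs of groups. GFP+ EMB+ and EMB- cells fell just short (0.0971 to 0.279). The numbers are those of the titles, which do not explain them.

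The ligands and the gene lists were chosen with earlier results of these data known. The genes named were the 10 ligands, list members described by role, and for each tested ligand the 3 genes with the highest Pearson's r over the 24 libraries; 1 of those for Wnt7b is not reported here. Which list members are described was chosen after their values were seen. The settings varied were the pseudocount (0.1 and 5), the filter (none, 17614 genes; FPKM 5, 8056 genes), the scaling (quantile, or median ratios of 4841 genes), library weights, the replicate block, and which libraries entered the fit: only the compared groups, none with conflicting labels, or all but 1 library. Promoters came from RefSeq's table for GRCm38.p6, and gene positions from GENCODE M21.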

Additional observations from a re-analysis of the deposited data

Results flagged for a closer look

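In 11 of 57 combinations of a ligand and a group, 1 of the 4 libraries lay far from the others by Dixon's test. Chance alone flags about 1 in 20 groups of normally distributed values. A single library above 0 beside others listed at 0 is always flagged, so the 11 are not read against that rate. Most of the 11 concern ligands near 0. Wnt2b was at 0.0850 FPKM in long bone EMB- replicate 2, and at most 0.0125 in the others. Wnt7b was at 0.137 in vertebral GFP- EMB- replicate 2 and listed at 0 in the others. Wnt10a stood out in vertebral GFP+ EMB- replicate 2 (0.0247, others listed at 0) and in long bone EMB+ replicate 2 (0.169, others at most 0.0200). Wnt10b stood out in replicate 3 of vertebral GFP+ EMB- (0.197, others listed at 0) and of long bone EMB- cells (0.332, others 0.143 to 0.170). Wnt16 did so in vertebral GFP+ EMB- replicate 3 (0.237, others listed at 0), vertebral GFP- EMB+ replicate 4 (0.591, others at most 0.0638), long bone EMB+ replicate 3 (0.460, others at most 0.0134) and, on the low side, long bone EMB- replicate 1 (0.236, others 0.731 to 0.827). Vertebral GFP+ EMB- replicate 3 was thus the single library of its group with any Wnt10b or Wnt16. The only tested ligand flagged above 0.2 FPKM was Wnt4, at 0.748 in vertebral GFP+ EMB- replicate 1 against 0.463 to 0.502 in the others.

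The EMB difference itself differed between sources in 6 of 18 tests over the 6 ligands. Between vertebral GFP+ and GFP- cells it did so for Wnt5b (-0.73). Between vertebral GFP+ and long bone cells it did so for Wnt5b (1.16) and Wnt11 (2.70). Between vertebral GFP- and long bone cells it did so for Wnt5a (0.93), Wnt5b (1.89) and Wnt11 (3.83). Of all genes tested, 4.87%, 30.5% and 29.8% differed in these comparisons, in the same order. What sets the sizes for the ligands was not tested.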

How the results depend on the processing

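Of 2370 ligand values under alternatives, 2311 kept their side of the threshold, with the same direction where they were called, 34 lost a call, 25 gained one, and 0 that were called reversed. Leaving out each library in turn gave 6 changed ligands throughout in both vertebral EMB comparisons, 5 to 6 in long bone, 0 and 1 to 2 for GFP in EMB+ and EMB- cells, 3 to 5 and 6 for vertebral GFP- against long bone in EMB+ and EMB- cells, 2 to 3 and 5 to 6 for vertebral GFP+, and 1 to 2, 2 to 3 and 3 to 4 for the 3 differences of EMB effects. The GFP count in EMB- cells fell from 2 to 1 with a pseudocount of 5 and without GFP+ EMB- replicate 3 or GFP- EMB- replicate 4. That of vertebral GFP+ against long bone EMB- cells fell from 6 to 2 with quantile normalization. The GFP+ against GFP- difference of EMB effects rose from 1 to 2 ligands with library weights, with the replicate block, with a pseudocount of 0.1, in a fit of the compared groups alone, and without GFP+ EMB- replicate 4 or long bone EMB- replicate 2 or 4. The 2 and 3 ligands that differed from long bone became 5 and 5 with a pseudocount of 0.1 and 4 and 5 with library weights. In paired fits, the replicate block changed no other ligand call than that of Wnt11 between vertebral GFP+ and GFP- cells (-1.13, SE 0.18, adjusted p = 4.5e-04).

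Over all genes, the EMB count in vertebral GFP+ cells fell from 5883 to 3352 with quantile normalization and 3248 with median-ratio scaling. In long bone it fell from 3942 to 2059 with only the compared groups and 1865 with neighbouring title codes as a block. The GFP count in EMB+ cells went from 247 to 136 with the stricter filter, 451 with library weights and 845 with the replicate block, and in EMB- cells from 997 to 1672 and 2031 with the last pair. The 573 differences between vertebral GFP+ and GFP- cells became 1150 with the compared groups, 1224 with weights, 1850 with the block and 900 without long bone EMB- replicate 4. The 3503 between vertebral GFP- and long bone cells became 2281 with median-ratio scaling. The share of calls that were higher moved from 16.7% to 52% (quantile) and 41.3% (median-ratio) in vertebral GFP- against long bone EMB- cells, from 15.5% to 59.3% and 41.7% in GFP+ against long bone EMB- cells, and from 26.6% to 40.8% (quantile) for GFP in EMB- cells. For vertebral GFP+ against long bone EMB+ cells it moved from 40.2% to 50.2% (quantile). For the differences from long bone it moved from 81.7% to 46.9% and 57.6% (GFP+) and from 83% to 49.6% and 54.4% (GFP-).

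For the pathway lists, both scalings and a fit without long bone EMB- replicate 4 were added after seeing the data. In vertebral GFP+ cells Tcf7l2 became -0.33 (quantile, adjusted p = 0.0409) and -0.35 (median-ratio, adjusted p = 0.0392), and so was called lower under both. Myc became -0.030 and -0.063, and Gsk3a -0.0074 and Csnk1a1 -0.0061 with median-ratio scaling, none of which passed (adjusted p from 0.768 to 0.982). In vertebral GFP- cells Notum became -0.069 and -0.011 and Dvl2 -0.042 with median-ratio scaling. The cause was not tested. FPKM limits all low ligands: without a filter, 4 of them enter tests in which many libraries are listed at 0.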
